A study of Mus musculus with 17 samples.

Results

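Ly6C high macrophages sorted from regenerating muscle on day 2 after injury were compared with those sorted on day 1. The cells came from the tibialis anterior of male DBA/2J mice aged 3 months, injured with cardiotoxin, a venom protein that destroys muscle fibres and so triggers their regeneration. Each day had 3 samples, out of 17 in 6 groups that also hold neutrophils (day 1), Ly6C high macrophages (day 4) and Ly6C low macrophages (days 2 and 4). Both groups compared here share the strain, sex, age, injury and sorting class and differ in the day. Whether a sample is 1 mouse or a pool of mice is not given in the sources used here. Poly-A RNA was sequenced, and 1 expression value per gene and group was used, which is the authors' mean on the log2 scale. The comparison covers the 11232 of 38087 genes whose value reached 5 on at least 1 of the days. Every difference below is the day 2 value minus the day 1 value, so that 1 is a doubling, and a gene is counted as higher or lower when it differs by at least 2-fold.

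After a sterile injury, neutrophils enter the muscle first and Ly6C high monocytes follow from the blood. These cells become inflammatory macrophages that clear dead fibres and secrete chemokines, interleukin-1 and growth factors. Within days many of them lose surface Ly6C and take on a reparative program, with uptake and storage of lipid from debris. Osteopontin, encoded by Spp1, and GPNMB are known as products of such lipid-loaded macrophages. CXCL5, which draws neutrophils, and epiregulin, an EGF family growth factor encoded by Ereg, belong to the early inflammatory output.

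The 2 columns were close. The median difference over all genes compared was -0.01, with quartiles of -0.16 and 0.17 and a standard deviation across genes of 0.37, and 10000 genes (89.0%) lay within 0.5 of each other. On day 2, 158 genes (1.41%) were at least 2-fold higher and 124 (1.10%) at least 2-fold lower, so that 282 (2.51%) were 2-fold apart. Of all genes compared, 48.8% were above 0. These shares are the background for every list count below. A 4-fold difference was reached by 17 higher and 20 lower genes. The higher genes were expressed at low levels, with a median day 2 value of 6.64, whereas the lower genes had a median day 1 value of 8.01. Of the higher genes 73 were under 5 on day 1, and 39 of the lower genes were under 5 on day 2. Both entered the comparison only through the column in which they were high. Among the 10792 genes at 5 or more on both days, 85 were higher and 85 lower. Just inside the minimum of 5 lay Brca1, at 4.67 on day 1, and just outside it Hddc2, at 4.96 on day 1, with day 2 values on either side of 5. Values from 5 to 5.1 were held by 125 genes, of which 8 were 2-fold apart, and values from 4.9 to 5 by 130, of which 10 were.

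Because each group is a single mean, the spread between samples is unknown, no test could be run, and no difference below has a replicate check. Counting error could be estimated. Part of the lowest values of a column lie on ladders of whole reads, from which 1 read was worth 0.586 to 0.632 normalised units in the day 1 libraries and 0.527 to 0.640 in those of day 2. The ladders took in 23.5 and 24.3% of the low-valued genes of the 2 columns. A value of 5 thus stood for about 52.8 reads on day 1 and 55.4 on day 2. For the 282 genes that were 2-fold apart, the counting standard error of the difference had a median of 0.11 and a maximum of 0.33. The smallest ratio of a difference to its counting standard error was 5.37. Genes at 5 to 6 were 2-fold apart in 6.53% of cases and those at 9 to 10 in 1.18%. Among the 485 genes at 12 or above it was 3.71%, with 4 higher and 14 lower.

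**Figure D1:**
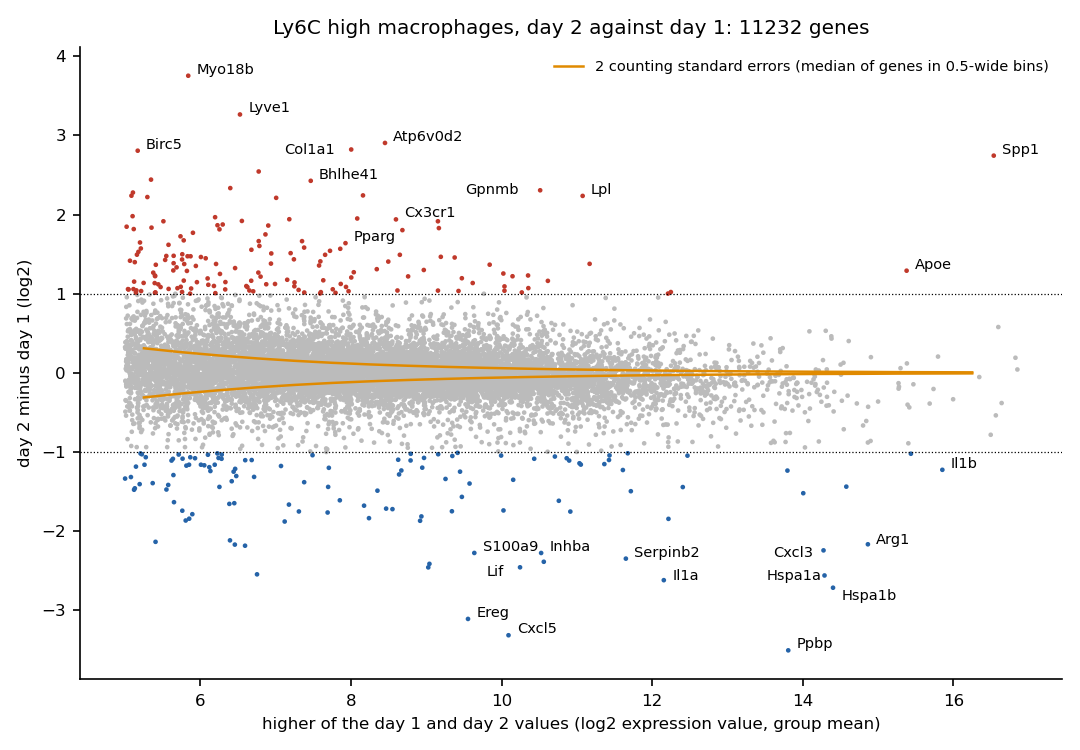
Difference between the days (vertical axis, day 2 minus day 1, log2) against the higher of the 2 values (horizontal axis, log2 expression value), 1 point per gene for 11232 genes, red for at least 2-fold higher on day 2, blue for at least 2-fold lower, grey for neither. Dotted lines mark 2-fold, and orange lines mark 2 counting standard errors, which hold no spread between samples. Spp1 stands alone at the upper right, and the lower right holds Ppbp, Hspa1b, Hspa1a, Cxcl3 and Arg1.

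Ly6c2 and the monocyte and macrophage marker genes named next differed by less than 2-fold. Ly6c2, which encodes the Ly6C antigen, was at 9.65 on day 1 and 9.87 on day 2, and the chemokine receptor gene Ccr2 at 11.85 and 12.08. The growth factor receptor gene Csf1r was at 13.52 on both days, Emr1 (now Adgre1, a macrophage surface marker) at 12.34 and 12.51, and the lysosomal glycoprotein gene Cd68 at 13.44 and 13.70. Itgam, which encodes CD11b, was lower by less than 2-fold, at 14.80 and 14.14. Of 20 classical monocyte genes none was 2-fold apart, with a median difference of -0.06. The versican gene Vcan (-0.87) and Chi3l3 (-0.88), a chitinase-like protein, differed most.

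Markers of other cells differed between the columns, and they stand beside every result below. Of 15 neutrophil markers compared, 6 were at least 2-fold lower on day 2 and none higher, with a median of -0.78. Of the 13 at 5 or more on both days 5 were lower, with the same median. Summed over the 22 members found, this list was at 13.52 on day 1 and 12.87 on day 2. The calprotectin genes S100a9 and S100a8 were at 9.64 and 9.34 on day 1 and at 7.36 and 7.59 on day 2. In the day 1 neutrophil column they were at 15.49 and 14.35. That column also held macrophage genes, with Csf1r at 13.27, Emr1 at 12.22 and Cd68 at 13.29, while Ly6c2 was at 6.70 and Ccr2 at 9.65. Whether it holds neutrophil RNA alone was not tested. Ly6g, the defining neutrophil antigen, was listed at 0 on both days, but it was only at 3.48 in the neutrophil column. The receptor gene Cxcr2 was at 5.21 and 4.64. Of 15 fibroblast markers compared 8 were higher and none lower, with a median of 1.15, but 5 of the 8 were under 5 on day 1. Of the 9 at 5 or more on both days 3 were higher, with a median of 0.64, and the median of all 20 found was 0.79. The summed level of all 20 found was 10.33 on day 1 and 11.39 on day 2. The collagen genes Col1a1 (5.18 and 8.0), Col1a2 (5.92 and 8.16) and Col3a1 (7.34 and 9.17) led them. In the same list the proteoglycan gene Lum (-0.94) and the receptor gene Pdgfrb (-0.44) were below 0.

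Most other marker lists differed less. The endothelial list had 1 of 12 members higher, the von Willebrand factor gene Vwf (4.80 and 7.01), with a median of 0.00 and a summed level of 10.66 on day 1 and 10.65 on day 2. Vwf entered only through day 2, and none of the 10 at 5 or more on both days was 2-fold apart. In the neutrophil column Vwf was at 8.93. The adhesion gene Pecam1 was at 8.75 and 7.85, and Cdh5, which encodes VE-cadherin, at 7.85 and 7.67. Dendritic cell markers had none of 13 members 2-fold apart (median 0.36). Of the B cell markers the immunoglobulin gene Ighm was higher (6.80 and 8.0). No muscle marker reached 5, and Myod1, Myf5, Myog and Pax7 were listed at 0 on both days. Hemoglobin transcripts were at 5.09 to 5.99 on day 1 and 0.60 to 0.73 lower on day 2. The part of these cells in the differences below was not tested. In such bulk samples, fewer cells of a type and less RNA per cell cannot be told apart.

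Lipid-associated macrophage genes held 4 of the 15 genes furthest up on day 2 among those with a value of at least 7. Of 24 members, all at 5 or more on both days, 8 were at least 2-fold higher on day 2 and none lower, and the median was 0.61. Spp1 (ENSMUSG00000029304, chr5:104435118-104441050, plus strand, GRCm38) was at 13.79 on day 1 and 16.54 on day 2, a 6.70-fold difference with a counting standard error of 0.0058 on the log2 scale. It was at 17.72 in Ly6C low cells of the same day. Gpnmb (ENSMUSG00000029816, chr6:49036546-49070929, plus strand), a transmembrane glycoprotein of lysosomes, was at 8.21 and 10.51 (4.95-fold). Lpl, the lipoprotein lipase gene, was at 8.84 and 11.08 (4.71-fold). In the day 1 neutrophil column Spp1 was at 14.78, Gpnmb at 12.15 and Lpl at 11.81.

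The other members that passed 2-fold were Atp6v0d2, Fabp4, Ctsk, Apoe and Syngr1. Fabp4, a fatty acid binding protein, was at 7.73 on day 1 and 9.19 on day 2, and the apolipoprotein gene Apoe at 14.09 and 15.38. The synaptogyrin gene Syngr1 was at 8.92 and 10.15. Below 2-fold were Fabp5 (0.95), the tetraspanin gene Cd63 (0.82), the lipid receptor gene Trem2 (0.63) and the galectin gene Lgals3 (0.52). The lipid droplet coat gene Plin2 was at 14.15 and 14.14, and the fatty acid receptor gene Cd36 was lower on day 2, at 13.78 and 13.02. Members of the list therefore differed in direction, from Atp6v0d2 at one end to Cd36 at the other.

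Around the lysosome, Atp6v0d2 stood apart from its complex. It encodes an alternative d subunit of the V-ATPase, the pump that acidifies lysosomes, and it was at 5.55 on day 1 and 8.45 on day 2, a 7.49-fold difference (ENSMUSG00000028238, chr4:19876841-19922605, minus strand). Of the other 15 pump genes compared none reached 2-fold. The next was Atp6v0a1 at 0.51, and the common d subunit gene Atp6v0d1 was at 11.76 and 11.77. Among 39 lysosomal hydrolase and membrane genes, 1 was 2-fold higher, the collagen-degrading cathepsin gene Ctsk (7.09 and 8.50), and none lower. Of these 39, 34 were above 0, with a median of 0.26. They included Naglu (0.74), the phospholipase gene Pla2g15 (0.72) and Psap (0.58), the precursor of the saposins. Cathepsin C, encoded by Ctsc, was the lowest at -0.35. Genes of osteoclasts and cell fusion, a program that also uses Atp6v0d2 and Ctsk, were split, with 2 of 17 higher and 2 lower. Its fusion genes Dcstamp (5.80 and 4.96) and Ocstamp (6.24 and 6.42) did not reach 2-fold.

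Genes of lipid sensing were higher in part. Pparg, which encodes the lipid-sensing nuclear receptor PPARγ, was at 6.29 on day 1 and 7.93 on day 2, a 3.11-fold difference with a counting standard error of 0.084. Of 23 PPAR receptors and targets, 3 were higher (Lpl, Pparg and Fabp4) and none lower, with a median of 0.19. Ppard (9.49 and 9.56) and Cpt1a, the gate of mitochondrial fatty acid oxidation, (9.96 on both days) were nearly level. Among 13 target genes of LXR, a sterol-sensing receptor, 2 passed 2-fold upward, Apoe and the phospholipid transfer protein gene Pltp (8.48 and 9.62), and none lower, with a median of 0.23. The cholesterol exporter genes of that list went apart, Abcg1 at 0.89 and Abca1 at -0.86. Sterol and fatty acid synthesis had 2 of 28 members higher, Lss (3.97 and 5.12) and Dhcr7 (5.76 and 6.87), none lower, 23 above 0 and a median of 0.31. Lss entered only through day 2. Of the 27 at 5 or more on both days 1 was higher, with a median of 0.30.

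Chemokines gave the largest differences downward. Of 10 CXC ligands compared, 4 were at least 2-fold lower on day 2 and none higher, with a median of -0.92, against -0.40 over all 14 listed. Ppbp, the platelet basic protein gene, whose product yields CXCL7, was at 13.81 on day 1 and 10.30 on day 2, an 11.4-fold difference, the largest downward among the genes compared. Cxcl5 (ENSMUSG00000029371, chr5:90759360-90761624, plus strand) was at 10.09 and 6.78 (9.95-fold, counting standard error 0.064). Cxcl3 was at 14.28 and 12.03, and Pf4, platelet factor 4, at 14.01 and 12.49. Cxcl1 (-0.94) and Cxcl2 (-0.89), which bind the same neutrophil receptor as CXCL5, stayed just under 2-fold. Cxcl10 (0.46), an interferon-induced ligand, and Cxcl12 (0.39) lay on the other side. Ppbp and Pf4 are also platelet genes. The other platelet markers were at 3.09 or below on both days, among them Itga2b (3.09 and 2.79) and Gp9 (0.35 and 0.18).

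The 10 CC ligands compared were all below 0, with a median of -0.91. The 4 that passed 2-fold were the monocyte chemokine gene Ccl2 (13.80 and 12.56), Ccl12 (8.95 and 7.75), the eosinophil chemokine gene Ccl24 (11.61 and 10.38) and Ccl6 (15.44 and 14.41). Ccl7 (-0.88), Ccl3 (-0.93) and Ccl4 (-0.43) were below 0 without reaching it. Among receptors, Cx3cr1, the fractalkine receptor gene, was higher (6.66 and 8.60), and Cxcr7 (7.85 and 6.24) and the formyl peptide receptor gene Fpr1 (8.35 and 6.86) were lower. The remaining 10 of 13 did not reach 2-fold.

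Of the EGF family ligands, which signal to epithelial and stromal cells, 2 of the 4 compared were at least 2-fold lower. Ereg (ENSMUSG00000029377, chr5:91074622-91093646, plus strand) was at 9.55 on day 1 and 6.45 on day 2, an 8.63-fold difference with a counting standard error of 0.072. Areg, which encodes amphiregulin, was at 10.91 and 9.16. Hbegf (-0.95) and Nrg1 (-0.73) did not reach 2-fold. The median of these 4 was -1.35, that of all 8 listed was -0.76, and the other 4 listed (Btc, Egf, Epgn and Tgfa) were at 2.17 or below on both days.

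The 4 CXC ligand genes that were lower sit together with Ereg and Areg on chromosome 5, a pattern noticed after the values were seen. The lower CC ligand genes lie elsewhere. Between Cxcl5 and AC165433.1 (chr5:90759360-92055960, 1297 kb), 14 genes were compared, 7 of which were at least 2-fold lower on day 2 and none higher. In chromosomal order these are Cxcl5, Ppbp, Pf4, Cxcl3, Ereg, Areg and AC165433.1. Cxcl1, Cxcl2 and Mthfd2l (6.24 and 5.46), a folate enzyme gene that lies between the chemokines and the EGF ligands, were below 0. Further along, Rchy1 (0.15) and Cdkl2 (0.42) were above 0.

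**Figure D2:**
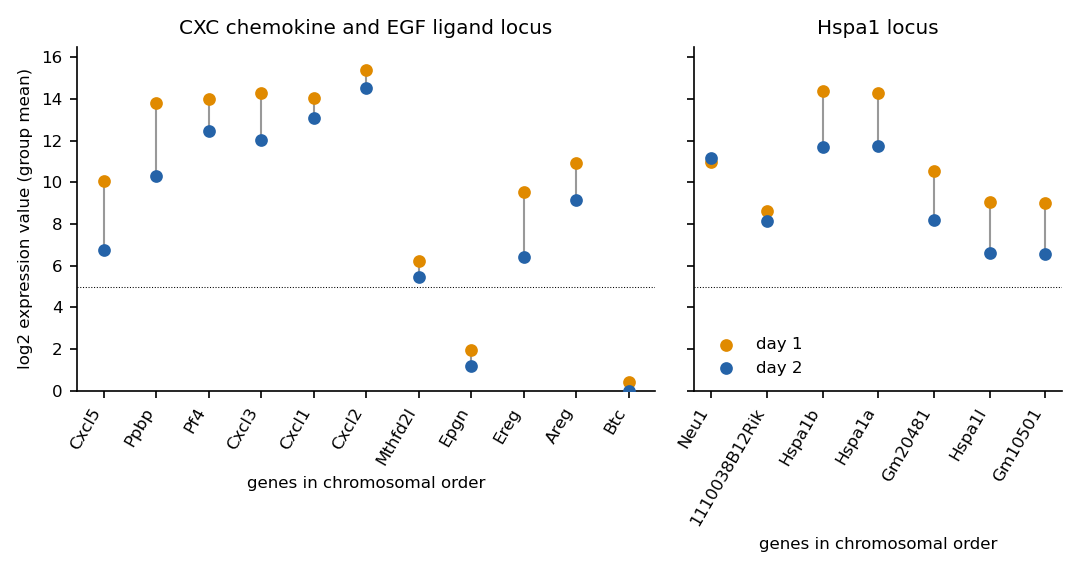
Log2 expression values (vertical axis, authors' group means) on day 1 (orange) and day 2 (blue) for genes in chromosomal order (horizontal axis) in the CXC chemokine and EGF ligand locus (left) and the Hspa1 locus (right), with a dotted line at the minimum of 5. Every gene plotted on the left is lower on day 2, from 0.41 for Btc to 3.51 for Ppbp, while on the right Neu1 is close to level and the genes from Hspa1b on are lower by 2.39 to 2.71. The genes plotted are a selection. On the left it leaves out, among others, Rchy1 and Cdkl2, which were above 0, and takes in Epgn and Btc, which were under the minimum.

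Upstream sequence is shown for Cxcl3, a member of that locus with an NF-kB motif in its window, since NF-kB is the factor best known to drive these chemokine genes. The motif GGNNTTTCC was searched on both strands of the 250 bases before gene starts in RefSeq (GRCm38.p6). It was present in 4 of the 8 CXC ligands with a window. Among genes compared, it was in 6.33% of the 7931 different symbols that had one. A symbol with several windows counted once, if any of them matched. Counted by window instead, the motif was in 4.93% of all 32851. The 150 bases upstream of the Cxcl3 start (chr5:90785951-90786100, plus strand) hold it 72 bases before the start, in capitals. A match describes the letters and is neither a binding site nor a cause.
Cxcl3: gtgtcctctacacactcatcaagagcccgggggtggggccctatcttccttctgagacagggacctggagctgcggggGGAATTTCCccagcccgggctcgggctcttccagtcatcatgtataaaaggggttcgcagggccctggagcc

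Several interleukin genes were lower on day 2. Il1a, which encodes the alarmin interleukin-1α, was at 12.15 on day 1 and 9.54 on day 2 (6.14-fold), and Il1b, at 15.85 and 14.63, differed by 2.34-fold. Il1f9, the interleukin-36γ gene, was at 7.12 and 5.24, and in the neutrophil column at 12.93. In that column Il1a was at 14.21 and Il1b at 15.78. These 3 were the members of 18 that passed 2-fold, none was higher, and the median was -0.40. The inflammasome genes Nlrp3 (13.62 and 13.01), Casp1 (8.68 and 8.66) and Pycard (9.70 and 9.81) did not reach 2-fold. In the list of IL-6 family and other cytokines, 4 of 9 were lower and none higher, with a median of -0.88. They were Lif (10.24 and 7.79), Il23a (6.75 and 4.21), Il6 (8.24 and 6.40) and Csf3 (8.93 and 7.12), the neutrophil growth factor G-CSF. Il23a entered only through day 1. Of the 8 at 5 or more on both days 3 were lower, with a median of -0.78. Oncostatin M, encoded by Osm, was at -0.88 and the anti-inflammatory Il10 at -0.68. Csf1, the macrophage growth factor gene, lay on the other side at 10.09 and 10.94. Tnf was at 12.21 and 11.55, and in its family the receptor gene Tnfrsf9 was lower (5.40 and 3.27) and Tnfsf13 higher (6.36 and 7.38). Tnfrsf9 entered only through day 1, and of the 13 family members at 5 or more on both days none was lower.

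Genes that restrain such signals mostly lay below 0 without reaching 2-fold, and immediate early genes lay on both sides of 0. Of 26 brakes on NF-kB and cytokine signalling, 22 were below 0 with a median of -0.36, and 1 passed 2-fold, Socs2 (5.22 and 4.19). Socs2 entered only through day 1, and none of the 25 at 5 or more on both days passed. Tnfaip3, which encodes A20, was at 13.72 and 13.30. None of the 23 immediate early genes was 2-fold apart (median -0.06), with Jund at 0.64 and Fosl1 at -0.48 as the ends of the range, and Fos at 12.75 and 12.61. Toll-like receptors and adaptors had none of 15 members 2-fold apart and a median of -0.22, with Tlr4 at -0.66 and its co-receptor gene Cd14 at 16.56 and 16.03.

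Enzymes of arginine and prostaglandin metabolism were lower in part. Arg1, the arginase that turns arginine into ornithine, was at 14.86 on day 1 and 12.70 on day 2 (4.49-fold). Ass1 (8.63 and 7.53), Arg2 (10.71 and 9.65) and the arginine carrier gene Slc7a2 (8.79 and 7.77) were also lower, so that 4 of 13 arginine and polyamine genes passed 2-fold downward and none upward, while the median was -0.04. Arg1 is also a marker of alternative activation. In that list 3 of 22 were lower and none higher, with a median of -0.40. Of the 19 at 5 or more on both days 2 were lower, with a median of -0.24. The mannose receptor gene Mrc1 was at 14.72 and 14.33. Among eicosanoid genes, Ptgs2, which encodes cyclooxygenase-2, was at 14.58 and 13.14 and the prostaglandin E synthase gene Ptges at 8.47 and 6.75, while the prostaglandin D synthase gene Hpgds was higher, at 7.16 and 8.65.

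Among genes of clotting and fibrinolysis, Serpinb2, the plasminogen activator inhibitor 2 gene, was furthest down, at 11.65 and 9.30. Tissue factor (F3, 6.25 and 4.81) and thrombomodulin (Thbd, 10.43 and 9.35) were lower as well, 3 of 17 in all with none higher and a median of -0.41. F3 entered only through day 1. Of the 16 at 5 or more on both days 2 were lower, with a median of -0.38. Plau, the urokinase gene, was at 11.77 and 12.17. The gelatinase gene Mmp9, also a neutrophil marker, was at 10.02 and 8.29, and the metalloproteinase inhibitor gene Timp2 went the opposite way, at 9.79 and 11.17. Among 16 growth factors, Inhba, which encodes the activin A subunit, was lower at 10.53 and 8.25. Higher were Igf1 (5.04 and 6.90), Vegfb (5.87 and 6.99) and Gdf15 (4.63 and 5.70), and Vegfa and Tgfb1 did not reach 2-fold. Gdf15 entered only through day 2, and of the 15 growth factors at 5 or more on both days 2 were higher and 1 lower. Fst, which encodes the activin antagonist follistatin, was in no list and was noticed after its values were seen. It was lower, at 6.38 and 4.73.

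Of 23 heat shock genes compared, 5 were at least 2-fold lower on day 2 and none higher, and 2 of the 5 are the near-identical Hspa1a and Hspa1b. The other 18 did not reach 2-fold. In all 22 were below 0, with a median of -0.58. Hspa1b and Hspa1a, which encode the inducible HSP70, were at 14.40 and 14.29 on day 1 and at 11.69 and 11.73 on day 2 (6.56- and 5.90-fold). Hsph1 (12.22 and 10.37), Hspb1 (6.19 and 5.03) and Dnaja1 (11.43 and 10.33) followed, and Dnajb1 lay just short of the threshold. The constitutive Hspa8 was at 14.90 and 14.04, and Hsf1, the factor that drives these genes, was at 8.69 on both days. The day 2 level was not kept, since in Ly6C high cells of day 4 Hspa1b was at 13.81 and Hspa1a at 13.73. Genes of the endoplasmic reticulum stress response had none of 16 members 2-fold apart (median -0.20).

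Hspa1a and Hspa1b are near-identical copies on chromosome 17, and reads could be shared between them. Hspa1a lies at chr17:34969190-34972156 and Hspa1b at chr17:34956436-34959238, both on the minus strand. Gm20481, on the opposite strand within Hspa1a, Hspa1l and Gm10501 were lower by 2.39 to 2.46. Without strand, reads of overlapping genes cannot be told apart, so these 5 genes are not 5 independent values. The 150 bases upstream of both starts are shown because they carry the heat shock element core GAANNTTC, in capitals, 104 bases before the start. Of these 150 bases 149 are identical. The motif, searched on both strands, was in 6 of the 18 heat shock genes with a window, in 6.01% of the genes compared that had one and in 6.69% of all windows. It was in 10.8% of the 83 genes at least 2-fold lower that had a window and in 9.17% of the 109 higher ones. The stretches are chr17:34972157-34972306 for Hspa1a and chr17:34959239-34959388 for Hspa1b, minus strand, GRCm38.p6.
Hspa1a: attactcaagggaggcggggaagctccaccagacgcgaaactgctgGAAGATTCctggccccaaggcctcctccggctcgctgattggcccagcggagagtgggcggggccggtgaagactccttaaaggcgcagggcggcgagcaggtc
Hspa1b: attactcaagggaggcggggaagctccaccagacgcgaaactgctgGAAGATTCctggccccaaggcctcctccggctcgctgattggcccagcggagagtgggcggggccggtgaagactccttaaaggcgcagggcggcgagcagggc

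Of 30 mitosis genes, 15 reached 5, of which 10 were at least 2-fold higher on day 2 and none lower. Most of them passed the minimum only through day 2, where they were high. Of the 5 at 5 or more on both days 1 was higher, Top2a, with a median of 0.55, and Mki67, Cenpa, Aurka and Kif23 did not reach 2-fold. Birc5, which encodes survivin, was at 2.36 on day 1 and 5.17 on day 2 (counting standard error 0.31), and Top2a, the topoisomerase of dividing cells, at 5.69 and 7.35. Anln (3.07 and 5.30) and the cyclin gene Ccna2 (4.10 and 5.78) were also higher. Mki67, the proliferation antigen, was at 8.93 and 8.87. Of 22 DNA replication genes compared all were above 0, 4 passed 2-fold and the median was 0.55. At 5 or more on both days, 2 of 19 passed, with a median of 0.54. The 4 were Rrm2 (4.26 and 5.76), Mcm6 (6.16 and 7.66), Chaf1a (4.18 and 5.21) and Mcm5 (6.94 and 7.97). The sliding clamp gene Pcna was at 9.96 and 10.02.

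Upstream sequence is shown for Top2a, as the mitosis gene of highest level among those 2-fold apart. The cell cycle homology region TTTGAA, searched on both strands, was in 5 of the 11 mitosis genes with a window. It was in 12.6% of the genes compared that had one and in 16.0% of all windows. A match lies 23 bases before the Top2a start (chr11:99024190-99024339, minus strand), in capitals and on the strand opposite to the gene. Outside the stretch shown, the window holds another match 179 bases before the start. It also holds the heat shock element core GAAGATTC, 176 bases before the start.
Top2a: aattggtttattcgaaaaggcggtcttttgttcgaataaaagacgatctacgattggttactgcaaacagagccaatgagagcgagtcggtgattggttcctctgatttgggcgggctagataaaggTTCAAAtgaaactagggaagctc

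Interferon response genes, which cells switch on when they sense type I interferon, were mostly above 0. Of 32 compared, 5 were at least 2-fold higher on day 2 and none lower, 26 were above 0 and the median was 0.41. Ifit2 was at 4.06 and 6.40 and Ifit3 at 4.44 and 6.25, followed by Cmpk2, Ifit1 and the antiviral GTPase gene Mx1 (6.26 and 7.30). Among the 28 members at 5 or more on both days, 2 passed 2-fold, and the median was 0.35. Isg15 (0.47) and Irf7 (0.58) did not reach it. Of 15 genes of MHC class II and costimulation none reached 2-fold, and the median was 0.45. The class II genes H2-Ab1 (10.83 and 11.50), Cd74 (13.92 and 14.38) and their activator Ciita (5.96 and 6.80) were above 0, and the costimulatory and inhibitory ligand genes Cd80 (-0.52), Cd274 (-0.81) and Pdcd1lg2 (-0.94) below.

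Of 22 markers of tissue-resident macrophages compared, 5 were at least 2-fold higher on day 2 and 1 lower, with a median of 0.26. Lyve1 and Cd5l entered only through day 2, and of the 19 at 5 or more on both days 3 were higher, with a median of 0.25. Lyve1, a hyaluronan receptor gene, was at 3.26 on day 1 and 6.53 on day 2 (9.61-fold, counting standard error 0.22) and at 9.24 in Ly6C low cells of day 2. It is also expressed by lymphatic endothelium. Cx3cr1, Igf1, Cd5l (3.52 and 5.35) and the sialic acid lectin gene Siglec1 (6.29 and 7.86) were higher too. Ccl24 was lower, and Cd163, the hemoglobin scavenger receptor gene, was at 11.32 and 10.34. Folr2 (9.87 and 9.86) and Mrc1 did not reach 2-fold, and Timd4 was at 4.78 and 5.04. The complement genes C1qa, C1qb and C1qc were above 0, by 0.68 to 0.89. For the uptake of dying cells, the receptor gene Axl was at 6.78 and 7.79 and its ligand gene Gas6 at 9.38 and 10.33, with 1 of 22 members passing 2-fold. Of 26 macrophage transcription factors 1 was higher, Bhlhe41 (5.04 and 7.47), and 1 lower, Tfec (9.16 and 8.13), while Sfpi1 (PU.1) and Cebpb differed by 0.15 or less.

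**Figure D3:**
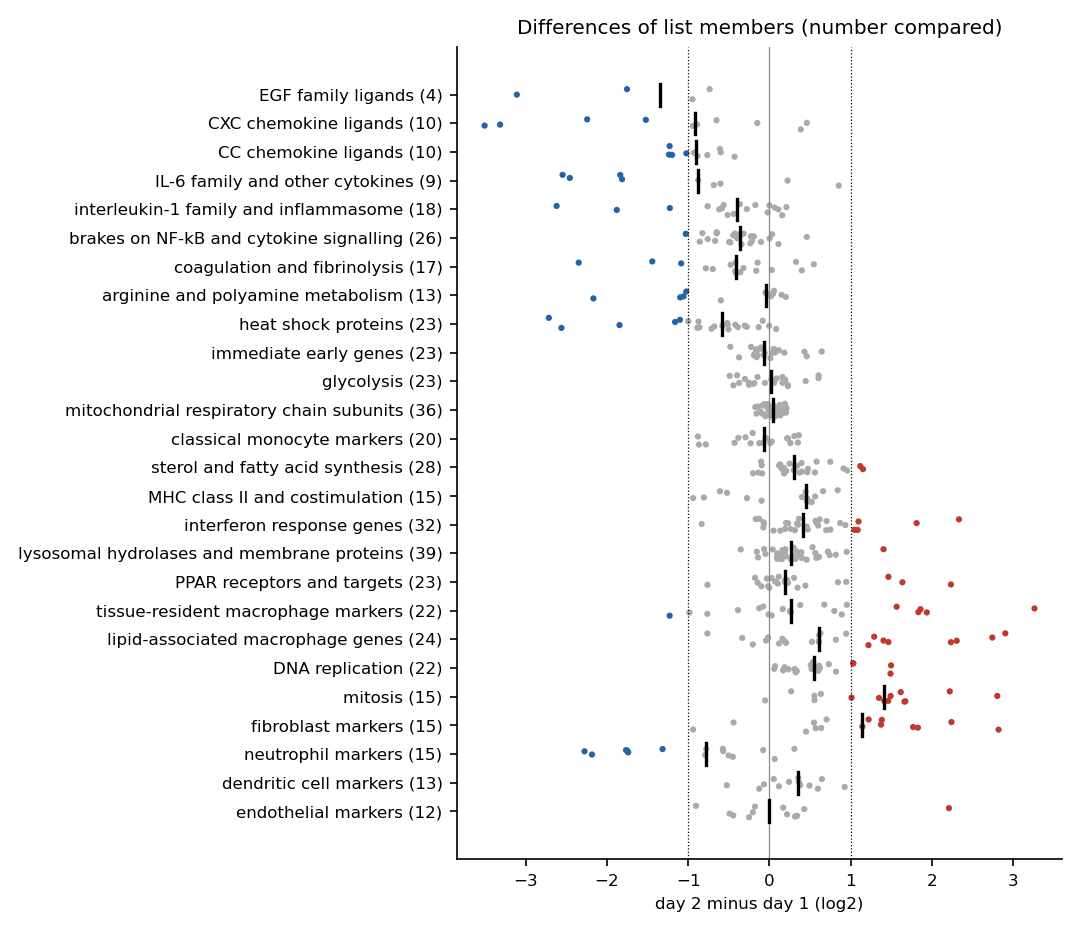
Differences (horizontal axis, day 2 minus day 1, log2) of the members compared in 26 of the 61 gene lists (vertical axis, with the number compared), 1 point per gene, red and blue for at least 2-fold higher and lower, black bars for list medians. The chemokine, cytokine, EGF ligand and heat shock lists lie to the left, with medians of -0.40 to -1.35, and the lipid-associated list to the right, with a median of 0.61. The neutrophil marker (-0.78) and coagulation (-0.41) medians also lie to the left. Over all members found, the EGF ligand median was -0.76 and the CXC ligand median -0.40. The mitosis and fibroblast medians, 1.42 and 1.15, rest in part on members that passed the minimum only through day 2, and were 0.55 and 0.64 over members at 5 or more on both days.

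Housekeeping and metabolic lists were near level. None of 23 glycolysis genes (median 0.02), 36 respiratory chain genes (0.05), 30 proteasome genes (-0.02) or 8 NADPH oxidase genes (0.03) was 2-fold apart. Of 40 ribosomal protein genes none was, although 38 were below 0, with a median of -0.12. The hypoxia list had 1 of 19 members lower, Ddit4 (8.64 and 7.36), and the NRF2 antioxidant list 1 of 23, the cystine carrier gene Slc7a11 (12.41 and 10.96). Of the 61 lists, 24 had a member at least 2-fold higher, 25 had 1 at least 2-fold lower and 21 had none 2-fold apart. Over all genes compared 1.41% were higher and 1.10% lower, so a list can hold such a member without standing out. The lists also share genes, with 1216 members listed and 1070 distinct genes found.

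The 15 genes furthest up and the 15 furthest down, among those whose higher value was at least 7, were also read in the other macrophage columns. Atp6v0d2 was at 9.80 in Ly6C high cells of day 4, at 9.85 in Ly6C low cells of day 2 and at 11.68 in those of day 4. Spp1 was at 15.11 in Ly6C high cells of day 4, below its day 2 level, and Gpnmb at 10.60, close to it. The collagen genes Col1a1, Col1a2 and Col3a1 were at 13.83, 13.57 and 14.51 in that column, where they were highest. Among the genes that were down, Ppbp was at 6.54 and 5.27 on day 4 in the Ly6C high and low classes, Ereg at 4.72 and 2.82, and Serpinb2 at 6.10 and 3.67. Cxcl5 was at 7.50 in Ly6C high cells of day 4, above its day 2 level, as were the Hspa1 genes. These columns are separate groups of samples, and the values are given side by side without a test.

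**Figure D4:**
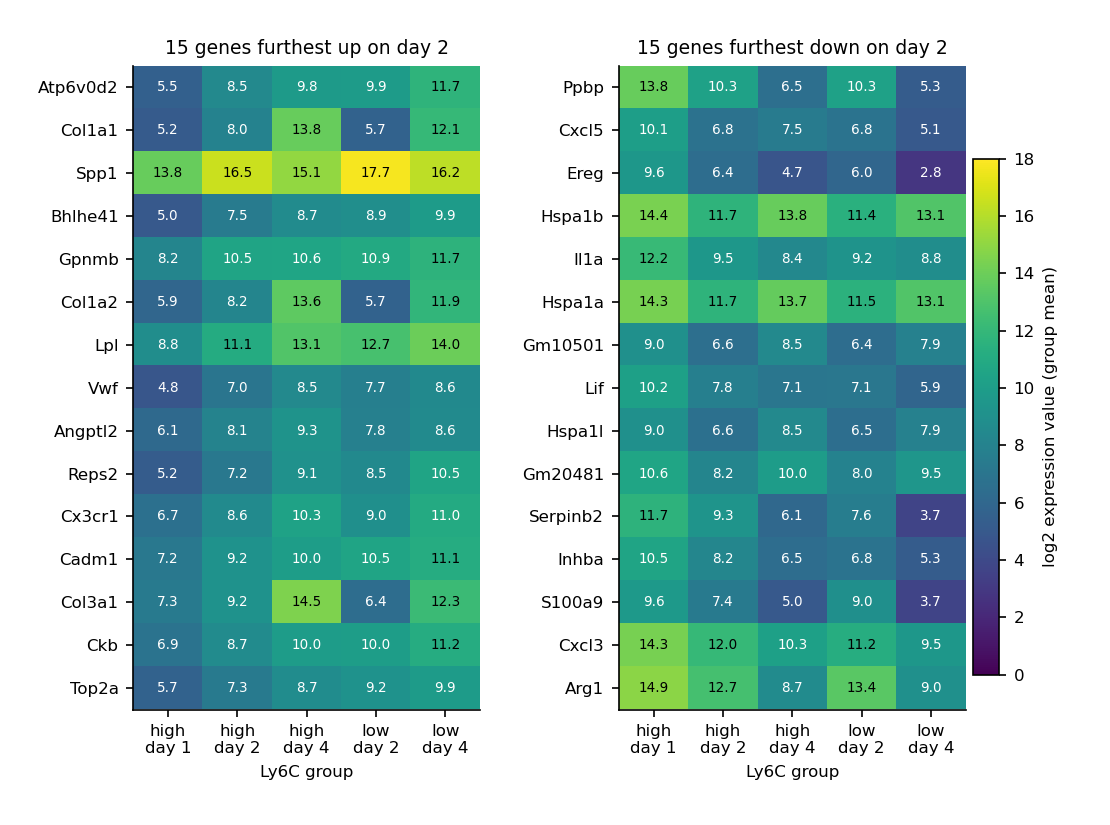
Log2 expression values (numbers and colour scale, authors' group means) of the 15 genes furthest up (left) and furthest down (right) on day 2 in the 5 macrophage groups (columns). Atp6v0d2 goes from 5.5 to 11.7 over the columns, and Hspa1b is high on days 1 and 4 of the Ly6C high class and lower in both day 2 columns.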

How the data were processed

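The values were deposited by the authors on the log2 scale in a table of 38087 genes with 1 column per group, and were used as the authors' group means. Per the submitters' processing notes, mm10, TopHat2 2.0.7 and Cufflinks 2.0.2 were used, with no role stated. How the values were normalised, and with which annotation, is not given in the sources used here. GENCODE M21 held 36308 (95.3%) of the identifiers and gave coordinates on GRCm38. Promoter windows (250 bases before to 50 after a start) came from RefSeq and matched 7943 of the 11232 genes compared, with 7931 different symbols. Motifs were searched in the 250 bases before the start only.

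The difference of the 2 log2 values was taken for genes at 5 or more in at least 1 column, with no pseudocount, and counted at 1 or more and at -1 or less. No test was possible on 1 value per group. The worth of a read was estimated from the lowest values, within a relative tolerance of 1e-05, and the script was tested on simulated data. Counting errors cover counting only, and total depth is unknown. Genes were named as the 15 furthest up and 15 furthest down with a value of at least 7, up to 4 members per list that were 2-fold apart (2 where none was), and 13 marker genes. Other members named were chosen after their values were seen, and some members are not reported here. The 61 gene lists and the markers were chosen with earlier results of these data known. Alternatives were other minimum values, a pseudocount, 2 rescalings and protein-coding genes only. Python 3.11.15, pandas 2.3.3 and numpy 2.4.6 were used.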

Additional observations from a re-analysis of the deposited data

How the results depend on the processing

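The counts of 158 higher and 124 lower genes depended on the minimum value. With a minimum of 7 they were 64 and 72, with 5 or more in both columns 85 and 85, and with no minimum 633 and 391, where genes of a few reads enter. A pseudocount of 5 gave 130 and 106, centring on the median 160 and 124, equal quantiles 132 and 132, and protein-coding genes alone 146 and 102. Genes in GENCODE M21 with a symbol on 1 row, an alternative chosen after seeing the data, gave 156 and 120. Minimum values and gene classes leave each difference as it is, and a pseudocount or this centring cannot turn the sign of a 2-fold difference. Only equal quantiles could have done so, and no named gene that was 2-fold apart changed sign there. Of the named genes 2-fold apart, 11 lost it under a pseudocount or equal quantiles: Tnfsf13, Socs2, Gdf15, Chaf1a, Cmpk2, Ifit1, Axl, Lss, Ccl6, Arg2 and Mcm5. Pdcd1lg2 reached it (-1.10) with equal quantiles. No paired analysis was possible because the columns are group means that carry no replicate, and for the same reason no sample could be left out. Depth limits genes near a value of 5, at about 52.8 to 55.4 reads.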

Other observations

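Several genes outside the lists, noticed after their values were seen, were also far apart. Myo18b, an unconventional myosin gene, had the largest difference of all genes compared, at 2.08 on day 1 and 5.84 on day 2, with a counting standard error of 0.33. Gpr34, a lysophosphatidylserine receptor gene, was at 2.90 and 5.34, and at 9.33 in Ly6C low cells of day 4. Fcrls was at 9.45 and 10.61. On the lower side were the acute phase gene Saa3 (8.92 and 7.05), the antiprotease gene Slpi (11.72 and 10.22) and Met (10.76 and 9.14), which encodes the receptor of hepatocyte growth factor. Hgf itself was at 8.09 and 8.19.

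AC136976.2 was at 6.18 on day 1 and 7.72 on day 2, and was listed at 0 in Ly6C low cells of day 2 and in both day 4 columns. It lies within Arsb, on the opposite strand. Arsb was at 7.92 on day 1 and 9.38 on day 2. In Ly6C low cells of day 2 Arsb was at 10.61, and on day 4 at 11.41 in Ly6C high and 12.04 in Ly6C low cells. Whether reads were shared between these overlapping genes was not tested. The AP-1 motif TGANTCA, searched on both strands, was in the window of 17 of the 83 genes at least 2-fold lower that had one (20.5%). It was in that of 11 of the 109 higher ones (10.1%) and of 5.54% of the genes compared that had a window.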
